A study of Mus musculus with 12 samples.

Results

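The voltage-gated sodium and calcium channel genes were examined in bulk RNA from mouse embryonic dorsal cortex. The members are all genes whose symbol names a sodium channel alpha or beta subunit (Scn), a calcium channel alpha1 subunit (Cacna1), or an alpha2delta, beta or gamma subunit (Cacna2d, Cacnb, Cacng), with Cacna1s outside the set. This symbol rule, which uses no measured value, finds 39 of 27179 genes: 10 sodium alpha, 4 sodium beta, 9 calcium alpha1, 4 alpha2delta, 4 calcium beta and 8 gamma genes. The 12 libraries form 4 groups of 3, all of strain C57BL/6: wild-type (WT) and Ash2l conditional knockout (cKO) cortex at E14.5 (E for embryonic day), and both genotypes again at E16.5. In the cKO mice Ash2l is deleted by D6-Cre, which is active in the progenitors of the dorsal telencephalon and their descendants. Inhibitory neurons that migrate in from the ventral telencephalon, meninges and vessels lie outside that lineage. The labels do not give the floxed allele, whether WT animals carry Cre, or how many embryos a library holds. A WT and a cKO library that share a number in the labels are given the same letter here (A, B or C, within each age).

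Voltage-gated sodium channels drive the upstroke of the action potential. Their alpha subunit forms the pore, and the beta subunits, single-pass membrane proteins, modulate gating and bind adhesion molecules. Voltage-gated calcium channels turn depolarization into calcium entry for transmitter release, gene regulation and rhythmic firing: an alpha1 subunit forms the pore, and alpha2delta and beta subunits bring it to the membrane and tune it. Of the gamma genes, Cacng2, Cacng3, Cacng4 and Cacng8 (type I) and Cacng5 and Cacng7 (type II) encode brain proteins known mainly as AMPA receptor auxiliary subunits (TARPs), and Cacng1 encodes the subunit of the skeletal muscle channel. Young cortical neurons are known to express many of these genes before they form mature synapses.

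The Ash2l protein belongs to the COMPASS complexes, whose substrate is lysine 4 of histone H3, a residue methylated at promoters rich in CpG. The windows from 250 bases before to 50 bases after a start site are therefore shown for 3 members whose RNA behaved differently: Cacna1d, which fell in the cKO, Scn11a, the one member that rose, and Cacna2d1, abundant and not called at either age. Letters run 5′ to 3′ on the gene's strand, and capitals mark CpG dinucleotides. Sequences are from RefSeq on GRCm38.p6. Cacna1d has 2 windows, one at its most upstream start and one at a start inside the gene.
Cacna1d, upstream start, chr14:30491107-30491406, minus strand: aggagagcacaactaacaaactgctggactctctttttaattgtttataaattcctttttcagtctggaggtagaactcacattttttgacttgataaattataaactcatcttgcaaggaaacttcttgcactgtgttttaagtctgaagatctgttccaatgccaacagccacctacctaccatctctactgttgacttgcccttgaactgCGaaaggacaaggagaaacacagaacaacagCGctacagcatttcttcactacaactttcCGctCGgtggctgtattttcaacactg
Cacna1d, inner start, chr14:30353437-30353736, minus strand: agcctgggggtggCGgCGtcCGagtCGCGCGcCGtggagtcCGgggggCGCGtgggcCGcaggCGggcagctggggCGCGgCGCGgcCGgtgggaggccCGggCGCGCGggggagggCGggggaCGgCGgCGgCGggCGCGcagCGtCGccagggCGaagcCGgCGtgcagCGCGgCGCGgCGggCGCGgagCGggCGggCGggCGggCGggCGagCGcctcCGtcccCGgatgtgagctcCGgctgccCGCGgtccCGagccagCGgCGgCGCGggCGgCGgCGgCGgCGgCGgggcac
Scn11a, chr9:119825407-119825706, minus strand: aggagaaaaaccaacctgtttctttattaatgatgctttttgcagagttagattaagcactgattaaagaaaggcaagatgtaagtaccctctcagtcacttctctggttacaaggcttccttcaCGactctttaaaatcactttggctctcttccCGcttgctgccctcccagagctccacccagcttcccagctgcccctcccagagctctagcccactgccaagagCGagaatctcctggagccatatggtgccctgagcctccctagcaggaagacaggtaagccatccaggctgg
Cacna2d1, chr5:15934441-15934740, plus strand: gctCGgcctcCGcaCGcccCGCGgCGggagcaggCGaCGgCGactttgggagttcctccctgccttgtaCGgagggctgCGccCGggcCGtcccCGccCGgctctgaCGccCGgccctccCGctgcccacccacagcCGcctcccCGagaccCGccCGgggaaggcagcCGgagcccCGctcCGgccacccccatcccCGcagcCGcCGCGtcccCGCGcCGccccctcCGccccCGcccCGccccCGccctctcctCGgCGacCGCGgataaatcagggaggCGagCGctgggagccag
The upstream Cacna1d window holds 4 CpG and the inner one 63. The Cacna2d1 window holds 42 CpG and the Scn11a window 3. RefSeq windows were found for 29 of the 39 members (40 windows), and Cacna1a, Cacna1g, Cacna1h, Cacna2d4, Cacng1, Cacng4, Scn3a and Scn3b have none in the table used. The median member window had 10 CpG, a GC content of 58.3% and a ratio of observed to expected CpG of 0.506. All 32851 windows of the table had medians of 7.0 CpG, 52.7% and 0.384. Members lower in the cKO at E16.5 had 16 windows, from 10 of the 17 genes, with a median ratio of 0.506. Members tested and not called there had 17 windows, from 12 of the 13 genes, with a median ratio of 0.600. A gene with several start sites counts more than once, and the lower genes without a window are not covered. No histone mark was analysed here.

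The targeted gene followed the labels. Ash2l averaged 129 ± 12.9 CPM (counts scaled by library size; SD, n = 3) in E14.5 WT and 52.8 ± 6.61 in E14.5 cKO, and 133 ± 3.56 in E16.5 WT against 58.1 ± 3.31 in E16.5 cKO. Library totals lay between 14318147 and 24719047 counts. By Xist and Y-linked counts the 3 E14.5 WT libraries were male and the 3 E14.5 cKO libraries female, so sex and genotype cannot be told apart at that age, while at E16.5 both genotypes held both sexes. Of the E14.5 libraries, cKO A had 345 CPM summed over 7 meningeal markers against at most 46.4 in the other 5, and WT B had 342 CPM over 11 GABAergic and ventral markers against at most 155. Choroid plexus markers summed to 459 CPM in E14.5 WT A and 599 CPM in E16.5 WT C, and to at most 56.6 CPM elsewhere. The 14 neuronal markers, which check the labelled tissue, were detected in every group. Their sum was 4667 to 6669 CPM in E14.5 WT and 2663 to 4683 CPM in E14.5 cKO, with overlap, and 6916 to 7443 CPM in E16.5 WT against 5194 to 5444 CPM in E16.5 cKO, without overlap. In bulk RNA, fewer cells of a type and less RNA per cell cannot be told apart.

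Levels between genes were compared per length, in TPM (transcript level scaled by length and library total) computed from the counts and the deposited gene lengths. Over the 12 libraries Cacng7 had the highest mean (157 TPM), followed by Cacng4 (118), Cacnb3 (111), Cacna2d1 (98.7), Cacna1e (69.7) and Scn3b (49.6). The gene models of Cacng7 and Cacng4 are short (828 and 984 bases, in a set that runs from 783 to 12697), and a level per length depends on them. Cacna1c (39.0 TPM), Scn3a (35.9), Cacna1b (34.6), Cacna2d3 (34.4), Cacnb1 (34.1) and Cacna1h (32.4) followed within a narrow range. Low levels of a few TPM were found for Cacna1i, Cacnb2, Cacng2, Cacng3, Cacng5 and Scn2b.

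**Figure D1:**
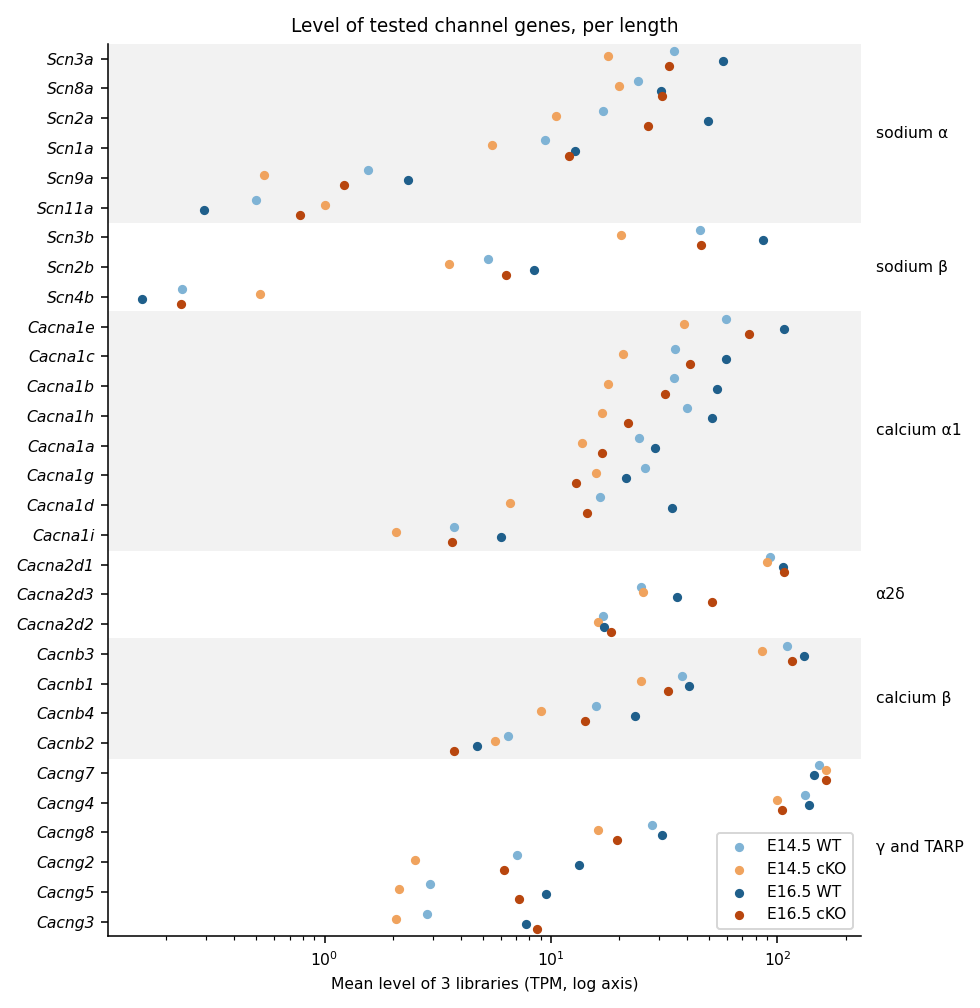
Mean level in TPM (log axis) of 30 channel genes tested in the 12-library fit, ordered within family by their mean, with 1 point for each of the 4 groups of 3 libraries. Cacng7 and Cacng4 stand highest, and Scn11a and Scn4b lie near or under 1 TPM.

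The remaining 7 members did not pass the filter on low counts in any comparison. Cacna2d4 had 0 to 7 counts per library, Cacna1f, the retinal L-type gene, 0 to 5, Cacng1 1 to 16 and Cacng6 0 to 4. Scn10a, a channel of sensory neurons, had 0 to 2 counts, Scn4a, the skeletal muscle channel, 0 to 3, and Scn7a 0 to 10. Scn4b was tested at E14.5 and in the 12-library fit but not at E16.5, with 1 to 21 counts per library. The counts of members below are of those tested.

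At E16.5 most of the tested channel genes were lower in the cKO. Of 31 members tested, 17 fell, 1 rose and 13 were not called (edgeR quasi-likelihood test, adjusted p under 0.05 over all 14865 genes), where 9.88% of all tested genes fell and 5.98% rose. In 19 of the 31 members the highest cKO library was under the lowest WT library, against 18.3% of all tested genes. The median log2 fold change was -0.54 over the members and 0.02 over all tested genes. Pore-forming calcium genes made up 8 of the 17, and the alpha2delta genes none. With the shared number as a block, which was taken to pair the E16.5 libraries, 21 members fell and 2 rose, where 17.9% of all genes fell and 14.3% rose. All 18 members called without the block were called with it, and Cacnb1, Cacnb3, Cacng5 and Scn2b (lower) and Cacna2d3 (higher) were added. When 12 libraries were fitted together, 8 members fell (6.95% of all genes), and 6 with embryo sex as a further term (5.97%).

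At E14.5 fewer members passed the test. Of 32 tested, 2 fell, Cacna1a and Cacna1h, and none rose, where 1.66% of 14788 genes fell and 0.352% rose. The log2 fold change was negative in 28 of 32, with a median of -0.63 against 0.03 over all tested genes. An unadjusted p under 0.05 was reached by 16 members and 20.2% of all tested genes, and in 13 the cKO libraries lay wholly below the WT libraries (14.8% of all tested genes). DESeq2 called 11 members lower (6.99% of genes with an adjusted p). With WT B and cKO A left out edgeR called 6 lower (3.51% of genes tested). Cacna1a and Cacna1h were among them in both. Without those 2 libraries the median over the members was smaller, at -0.36, and 24 of 32 were negative. WT B had the highest and cKO A the lowest neuronal marker sum of the E14.5 libraries (6669 and 2663 CPM). Leaving out any single library other than cKO A left no member called by edgeR, with 11 to 22 members and 13.8% to 22.3% of all genes at an unadjusted p under 0.05. The authors' deposited table, from DESeq2, calls 10 members lower at E14.5 (6.22% of its genes with an adjusted p) and, at E16.5, 17 lower (10.8%) and 2 higher (6.26%).

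The difference between the ages was tested itself. None of 15338 genes passed in edgeR, 0.0% of those tested, with 318 genes and no member at an unadjusted p under 0.05, and DESeq2 called none either. For the members the difference in log2 fold change ran from -0.53 (Scn4b, SE 1.16) to 0.64 (Scn1a, SE 0.53), with a median of 0.11, so for no member was a change at 1 age shown to differ from that at the other.

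**Figure D2:**
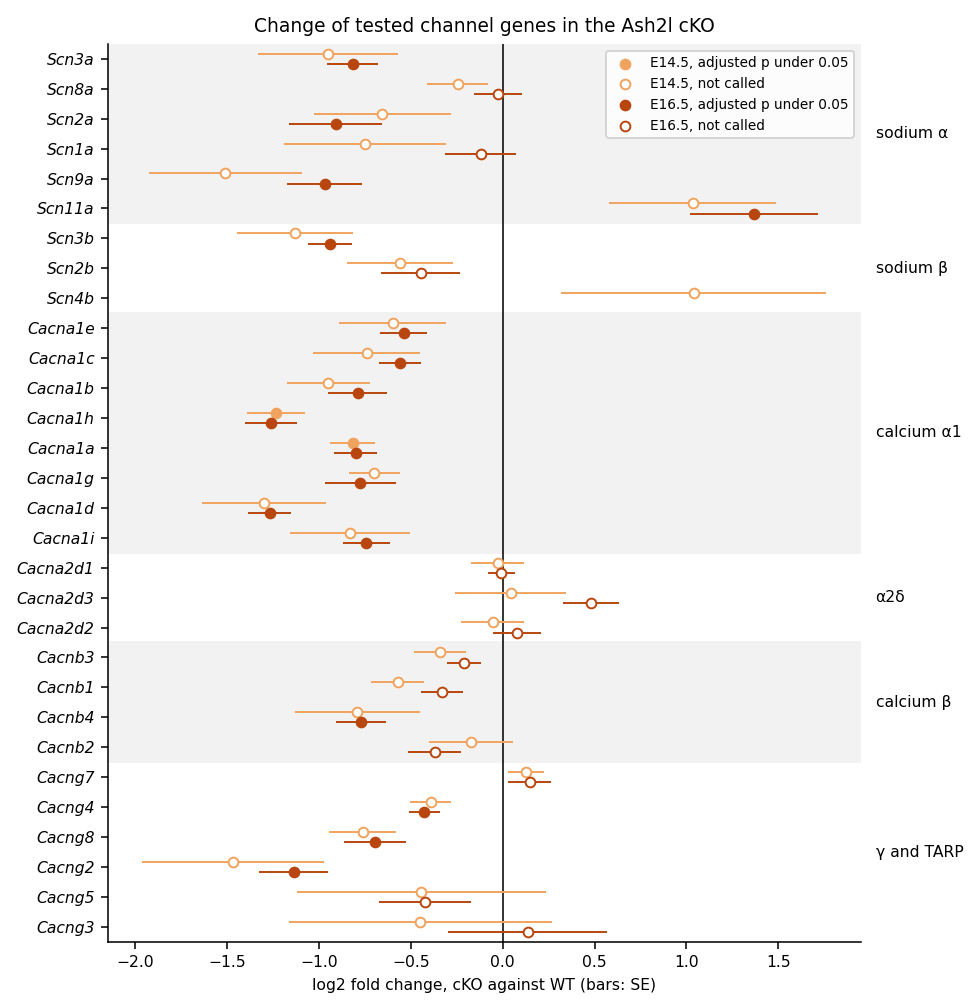
log2 fold change of cKO against WT for 30 tested members at E14.5 (light) and E16.5 (dark), with its SE; filled points passed an adjusted p of 0.05. Calcium alpha1 genes lie left of 0 at both ages, and alpha2delta genes lie around or right of it.

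Among the sodium alpha genes, which form the pore, Scn2a, Scn3a and Scn9a fell at E16.5, Scn11a rose, and Scn1a and Scn8a were not called. Scn3a, known as the main alpha subunit of the embryonic brain, measured 211, 174 and 154 CPM in E16.5 WT A, B and C and 120.2, 91.4 and 95.9 CPM in cKO A, B and C. Each cKO value lay below each WT value, and Scn3a fell by 43.2% (log2 fold change -0.82, SE 0.14, adjusted p = 0.00838). Its E14.5 values were 81.1, 149 and 118 CPM in WT and 30.6, 92.3 and 56.8 CPM in cKO, which overlap (-0.95, SE 0.38, adjusted p = 0.226). Within E14.5 library B was the highest and library A the lowest of each genotype.

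Scn2a, the alpha subunit of early axon initial segments, measured 189, 130.2 and 104 CPM in E16.5 WT and 99.9, 67.3 and 58.5 CPM in cKO. The highest cKO library, A, came close to the lowest WT library, C, and the gene fell by 46.8% (-0.91, SE 0.25, adjusted p = 0.0461). The call held only when WT C or cKO A was the library left out, and the adjusted p reached 0.157 without the others. At E14.5 Scn2a overlapped between genotypes, with 32.9, 68.3 and 51.7 CPM in WT and 17.8, 47.5 and 31.7 CPM in cKO (-0.66, SE 0.37, adjusted p = 0.374). Scn9a, best known from sensory neurons, was a low-level member. It measured 8.55, 5.75 and 8.16 CPM in E16.5 WT and 3.40, 3.79 and 4.36 CPM in cKO, without overlap (-0.97, SE 0.20, adjusted p = 0.0179). E14.5 gave Scn9a 2.85, 6.07 and 7.01 CPM in WT and 1.13, 2.44 and 2.01 CPM in cKO, also without overlap, and it was not called (-1.51, SE 0.42, adjusted p = 0.109).

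Scn11a, a channel of nociceptors, was the one member that rose, and its counts were low, 9 to 52 per library. It measured 0.478, 0.639 and 0.564 CPM in E16.5 WT and 1.70, 0.985 and 1.72 CPM in cKO, so every cKO library lay above every WT library (1.37, SE 0.35, adjusted p = 0.0356). The call held when cKO B was left out and was lost when any other library was (adjusted p up to 0.120), and no member rose in the 12-library fit, with or without embryo sex. Scn11a at E14.5 was 1.65, 0.632 and 0.738 CPM in WT and 2.80, 1.39 and 1.97 CPM in cKO, with overlap (1.04, SE 0.45, adjusted p = 0.257).

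Scn8a, the main alpha subunit of mature nodes and initial segments, was not called at either age, and its change was not tested against that of Scn2a or Scn3a. It measured 128, 110.1 and 103 CPM in E16.5 WT and 134, 101 and 101 CPM in cKO, with overlapping values (-0.026, SE 0.13, adjusted p = 0.918). Scn8a also overlapped at E14.5, at 88.3, 107 and 88.7 CPM in WT and 59.8, 90.7 and 87.9 CPM in cKO (-0.25, adjusted p = 0.454). Scn1a, prominent later in inhibitory neurons, had a log2 fold change of -0.12 (SE 0.19) at E16.5 and -0.75 (SE 0.44) at E14.5. As shares of the summed sodium alpha TPM, Scn8a made up 18.6% to 21.6% in the E16.5 WT libraries and 28.4% to 29.9% in the cKO libraries. Scn2a made up 28.4% to 35.7% in WT and 22.4% to 27.5% in cKO, and Scn3a 36.3% to 38.2% in WT and 30.1% to 33.4% in cKO. The ranges of WT and cKO do not overlap at E16.5 for any of these 3 genes. At E14.5 the Scn8a share was 25.1% to 32.2% in WT and 29.7% to 40.2% in cKO, with overlap. With 3 libraries against 3 an exact two-sided permutation test of a share cannot give a p under 0.1, so these ranges carry no test.

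**Figure D3:**
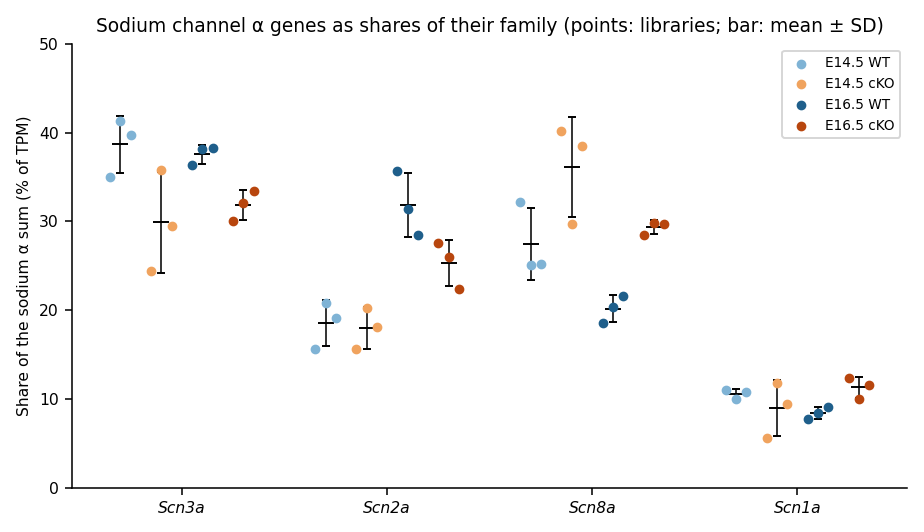
Share of the summed sodium alpha level (percent of TPM) held by Scn3a, Scn2a, Scn8a and Scn1a in each of the 12 libraries, with mean and SD of 3. At E16.5 the cKO points lie lower for Scn3a and Scn2a and higher for Scn8a, at 28.4% to 29.9% against 18.6% to 21.6%.

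Several of these genes are neighbours on chromosome 2, in the order Scn3a (65457118 to 65567492), Scn2a, Scn1a (66270782 to 66440837), Scn9a and Scn7a (ending at 66784910; mm10). Scn3a, Scn2a and Scn9a fell at E16.5, Scn1a, which lies between Scn2a and Scn9a, was not called, and Scn7a was hardly counted.

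Of the sodium beta genes, Scn3b fell at E16.5 and Scn2b was not called. Scn3b was the most abundant of the family, with 146, 129 and 117 CPM in E16.5 WT and 76.0, 70.7 and 57.9 CPM in cKO. The groups were far apart, and it fell by 48.0% (-0.94, SE 0.12, adjusted p = 0.00311). Scn3b measured 46.8, 98.3 and 72.8 CPM in E14.5 WT and 22.9, 45.4 and 31.0 CPM in cKO. The highest cKO library, B, lay just under the lowest WT library, A, and the gene was not called (-1.13, SE 0.32, adjusted p = 0.114). Scn2b measured 16.46, 12.02 and 9.39 CPM in E16.5 WT and 10.8, 8.09 and 8.98 CPM in cKO, with overlap (-0.45, SE 0.22, adjusted p = 0.201 and 0.0370 with the block). Its E14.5 values of 5.85, 10.9 and 8.35 CPM in WT and 4.41, 7.46 and 5.13 CPM in cKO overlapped too (-0.56, adjusted p = 0.327). Scn4b, tested at E14.5, had a log2 fold change of 1.04 with an SE of 0.72.

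All 8 tested calcium alpha1 genes fell at E16.5, by 31.2% to 58.5%, and in each of them every cKO library lay below every WT library. They span the channel types: P/Q (Cacna1a), N (Cacna1b), L (Cacna1c, Cacna1d), R (Cacna1e) and T (Cacna1g, Cacna1h, Cacna1i). At E14.5 all 8 had negative log2 fold changes, from -1.30 to -0.60, and 2 of them were called. The summed alpha1 level was 304 to 397 TPM in the E16.5 WT libraries and 198 to 233 TPM in the cKO libraries, and at E14.5 217 to 262 TPM in WT and 92.4 to 163 TPM in cKO.

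Cacna1a, the P/Q-type pore used for transmitter release, measured 68.4, 59.4 and 74.2 CPM in E14.5 WT and 32.8, 40.6 and 40.5 CPM in cKO. The groups were well apart, and the gene fell by 43.3% (-0.82, SE 0.12, adjusted p = 0.0298). At E16.5 Cacna1a measured 85.3, 74.0 and 64.8 CPM in WT and 38.3, 45.4 and 45.5 CPM in cKO, a fall of nearly the same size (-0.80, SE 0.12, adjusted p = 0.00485). Cacna1b, the N-type pore, measured 154, 132 and 99.9 CPM in E16.5 WT and 85.2, 72.3 and 66.4 CPM in cKO (-0.79, SE 0.16, adjusted p = 0.0158). In E14.5 it gave 75.7, 99.9 and 90.6 CPM in WT and 30.5, 59.5 and 47.4 CPM in cKO, without overlap and not called (-0.95, SE 0.23, adjusted p = 0.0806). The E14.5 call of Cacna1a held only when cKO A was the library left out (adjusted p up to 0.163 without another).

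The L-type pores couple depolarization to gene regulation. Cacna1d had the largest fall among the E16.5 members, with 116, 104 and 89.8 CPM in WT and 48.1, 42.0 and 39.0 CPM in cKO. The groups were far apart, and Cacna1d fell by 58.5% (-1.27, SE 0.12, adjusted p = 0.00163). Cacna1d at E14.5 measured 43.6, 65.0 and 49.7 CPM in WT and 11.1, 30.9 and 22.2 CPM in cKO, apart but with a wide spread in the cKO (-1.30, SE 0.34, adjusted p = 0.0952). Cacna1c fell less, with 202, 174 and 150.3 CPM in E16.5 WT and 128, 124 and 108 CPM in cKO (-0.56, SE 0.11, adjusted p = 0.0169). Cacna1c values of 94.2, 127 and 110.4 CPM in E14.5 WT and 39.4, 96.3 and 62.5 CPM in cKO overlapped through cKO B (-0.74, SE 0.29, adjusted p = 0.216).

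Cacna1e, the R-type pore, was the most abundant alpha1 gene per length. It measured 470.0, 470.0 and 387 CPM in E16.5 WT and 349, 314 and 253 CPM in cKO, and had the smallest fall of the 8 (-0.54, SE 0.13, adjusted p = 0.0284). Cacna1e at E14.5 gave 233, 289 and 264 CPM in WT and 94.0, 234 and 189 CPM in cKO, with cKO B inside the WT range (-0.60, SE 0.29, adjusted p = 0.302). Its share of the summed alpha1 level was 28.4% to 30.4% in E16.5 WT and 30.9% to 37.2% in cKO.

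The T-type pores open near the resting potential. Cacna1h measured 105, 129 and 109 CPM in E14.5 WT and 38.4, 48.7 and 57.5 CPM in cKO, and fell by 57.5% (-1.23, SE 0.16, adjusted p = 0.0207). Its E16.5 values were 148, 159 and 108 CPM in WT and 53.8, 58.7 and 60.9 CPM in cKO, a fall of 58.3% (-1.26, SE 0.14, adjusted p = 0.00211). The cKO libraries lay far below the WT libraries at both ages, without overlap. The Cacna1h share of the summed alpha1 level was 15.4% to 17.4% in E14.5 WT and 10.2% to 14.7% in cKO. At E16.5 that share was 13.1% to 15.5% in WT and 8.83% to 11.5% in cKO. The E14.5 call, like that of Cacna1a, held only when cKO A was the library left out, with an adjusted p of up to 0.110.

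Cacna1g measured 51.2, 68.0 and 54.7 CPM in E16.5 WT and 24.2, 37.8 and 40.2 CPM in cKO (-0.77, SE 0.19, adjusted p = 0.0331). E14.5 values for Cacna1g were 70.7, 62.3 and 90.2 CPM in WT and 44.9, 46.8 and 44.8 CPM in cKO, where the 3 cKO libraries were nearly equal (-0.70, SE 0.14, adjusted p = 0.0554). Cacna1i, the least abundant of the 8, measured 22.2, 19.2 and 16.6 CPM in E16.5 WT and 11.9, 11.3 and 11.6 CPM in cKO (-0.74, SE 0.13, adjusted p = 0.00884). Neither Cacna1g nor Cacna1i overlapped between genotypes at E16.5. Cacna1i at E14.5 measured 9.10, 16.2 and 12.8 CPM in WT and 4.04, 8.99 and 8.33 CPM in cKO, with cKO B just under WT A (-0.83, SE 0.33, adjusted p = 0.220).

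The E16.5 calls differed in how far they rested on single libraries. Those of Cacna1a, Cacna1d, Cacna1h, Cacna1i, Cacnb4, Cacng2, Scn3a and Scn3b held in all 6 fits that left out 1 library. Cacna1b and Cacna1c lost the call without WT B or without cKO B (adjusted p up to 0.0726 and 0.0657), and Cacng4 without WT A or cKO B (up to 0.0755). Cacna1e lost it without WT A, WT B or cKO B (up to 0.107), and Scn9a without WT A, WT C or cKO B (up to 0.0749). Cacng8 kept it only without WT C or cKO A (up to 0.112), and Cacna1g only without cKO A or cKO C (up to 0.122). In number, 10 members were called without WT A, 10 without WT B and 9 without cKO B, and 15 to 17 without one of the other 3 libraries, and the direction of these 18 members did not change in any of these fits.

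**Figure D4:**
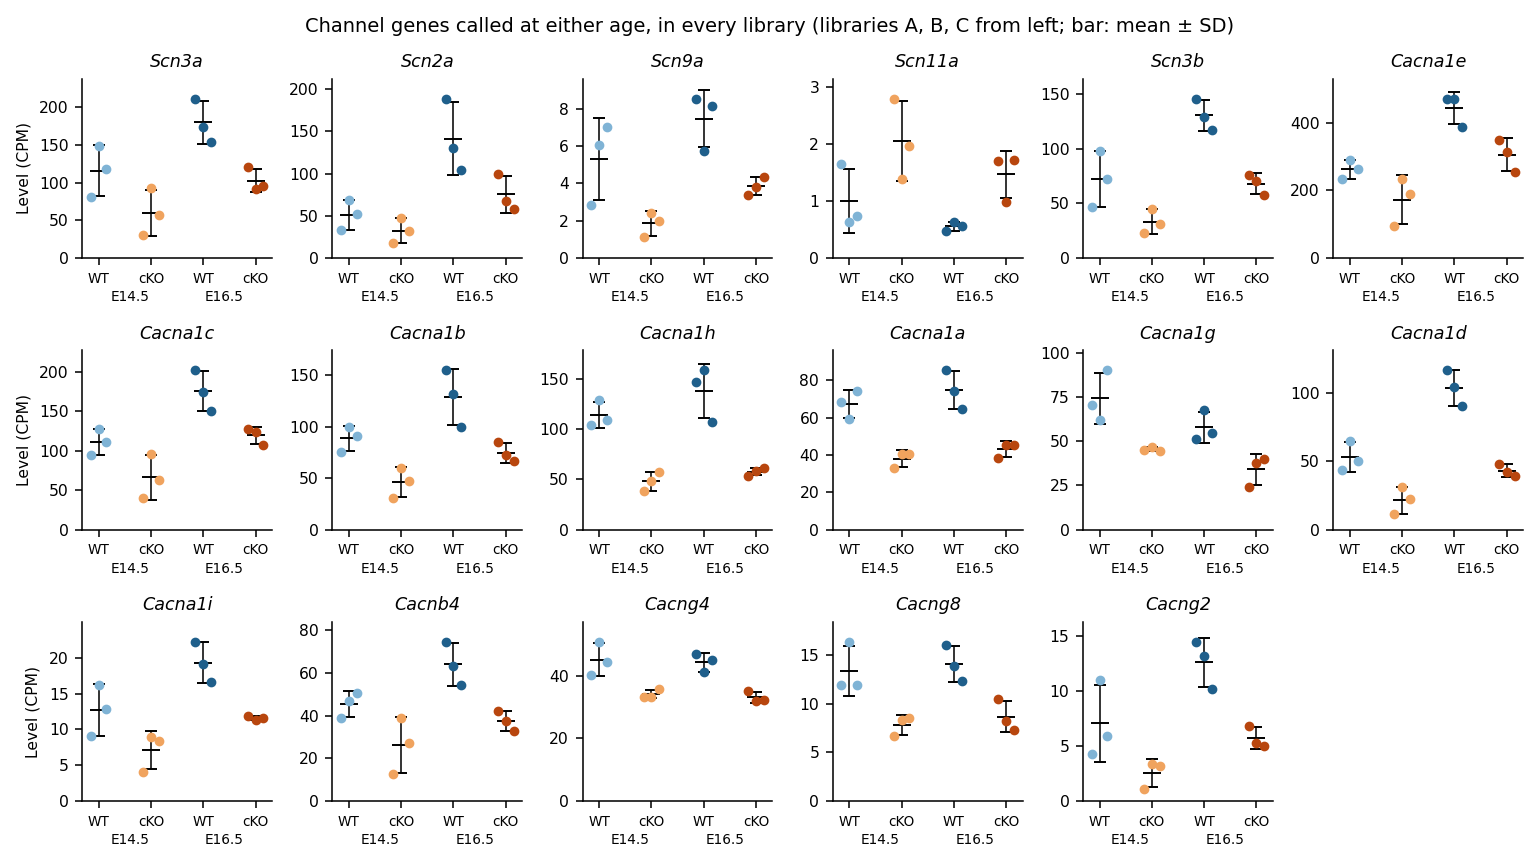
CPM of 17 of the members called at either age in each of the 12 libraries (A, B and C from left within a group), with mean and SD of 3. At E16.5 the 3 cKO points lie below the 3 WT points in 16 panels and above them in the Scn11a panel.

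The 3 tested alpha2delta genes, whose proteins bring channels to the membrane and bind gabapentin (Cacna2d1, Cacna2d2), were not called at either age, and only Cacna2d3 at E16.5 had an unadjusted p under 0.05. Cacna2d1 was the fourth most abundant member per length, with 265, 266 and 245 CPM in E16.5 WT and 255, 239 and 280.3 CPM in cKO. The groups overlapped fully, with a log2 fold change of -0.0086 and an SE of 0.074 (adjusted p = 0.954). At E14.5 Cacna2d1 measured 256, 212 and 258 CPM in WT and 191, 274 and 243 CPM in cKO (-0.027, SE 0.14). Cacna2d3 measured 41.8, 50.9 and 38.1 CPM in E16.5 WT and 71.0, 62.5 and 49.5 CPM in cKO. Of the cKO libraries only C lay inside the WT range, and the gene was not called (0.48, SE 0.15, adjusted p = 0.0729), but rose with the block (adjusted p = 0.00467). E14.5 gave Cacna2d3 27.5, 31.7 and 37.1 CPM in WT and 19.6, 49.8 and 29.9 CPM in cKO, a wide cKO spread around the WT values (0.045, SE 0.30). Cacna2d2 had log2 fold changes of -0.055 (SE 0.17) at E14.5 and 0.076 (SE 0.13) at E16.5. Summed over the family, the level was 159 ± 12.9 TPM in E16.5 WT and 177 ± 7.25 TPM in cKO (SD, n = 3), the one of the 6 families with a higher mean sum in cKO at that age.

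The calcium beta genes encode the cytoplasmic subunits that bind the pore. Cacnb4 fell at E16.5, from 74.5, 63.4 and 54.1 CPM in WT to 42.4, 37.7 and 32.7 CPM in cKO (-0.77, SE 0.14, adjusted p = 0.00968). At E14.5 Cacnb4 measured 38.8, 47.1 and 50.6 CPM in WT and 12.8, 39.0 and 27.1 CPM in cKO, with cKO B level with the lowest WT library (-0.79, SE 0.34, adjusted p = 0.253). Cacnb3, the most abundant beta gene, measured 145, 138 and 121 CPM in E16.5 WT and 124, 120.2 and 105 CPM in cKO, with overlap (-0.21, SE 0.094, adjusted p = 0.165 and 0.00686 with the block). Whether Cacnb3 and Cacnb4 differed in their change was not tested. Cacnb3 at E14.5 had 107, 135 and 115 CPM in WT and 76.7, 95.8 and 107 CPM in cKO (-0.34, SE 0.14, adjusted p = 0.239). Cacnb1 measured 36.1, 34.2 and 27.8 CPM in E16.5 WT and 27.3, 24.3 and 26.7 CPM in cKO (-0.33, SE 0.12, adjusted p = 0.0911 and 0.0274 with the block). The groups were apart by a narrow margin. E14.5 values of Cacnb1 were 29.0, 35.4 and 32.1 CPM in WT and 17.2, 23.2 and 24.01 CPM in cKO, further apart (-0.57, SE 0.15, adjusted p = 0.0924). Cacnb2 was not called, at -0.17 (SE 0.23) at E14.5 and -0.37 (SE 0.14) at E16.5.

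Of the 6 tested gamma genes, Cacng2, Cacng4 and Cacng8, all type I TARPs, fell at E16.5. Cacng2 (stargazin) measured 14.49, 13.2 and 10.2 CPM in E16.5 WT and 6.86, 5.34 and 5.02 CPM in cKO, and fell by 54.6% (-1.14, SE 0.19, adjusted p = 0.00720). Its E14.5 values were 4.30, 11.001 and 5.95 CPM in WT and 1.08, 3.35 and 3.20 CPM in cKO, apart but spread widely (-1.47, SE 0.49, adjusted p = 0.162). Cacng8 measured 15.98, 13.8 and 12.3 CPM in E16.5 WT and 10.5, 8.19 and 7.33 CPM in cKO (-0.70, SE 0.17, adjusted p = 0.0296). The same gene at E14.5 measured 11.9, 16.3 and 11.9 CPM in WT and 6.67, 8.29 and 8.496 CPM in cKO, again without overlap (-0.76, SE 0.18, adjusted p = 0.0790). Cacng4 had the smallest of the falls called, from 46.9, 41.1 and 45.0 CPM in E16.5 WT to 35.1, 32.0 and 32.2 CPM in cKO (-0.43, SE 0.086, adjusted p = 0.0154). At E14.5 Cacng4 measured 40.1, 50.8 and 44.5 CPM in WT and 33.4, 33.3 and 35.7 CPM in cKO, with tight cKO values below all WT values (-0.39, SE 0.11, adjusted p = 0.116).

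Cacng7, a type II TARP and the most abundant member per length, was not called. It measured 41.5, 42.8 and 34.0 CPM in E16.5 WT and 48.5, 43.6 and 39.4 CPM in cKO (0.15, SE 0.12, adjusted p = 0.432), and 45.1, 42.7 and 43.8 CPM in E14.5 WT and 44.3, 45.4 and 52.9 CPM in cKO (0.13, SE 0.10, adjusted p = 0.521). The genotypes overlapped at both ages. Its share of the summed gamma level was 52.4% to 53.5% in E16.5 cKO and 39.6% to 45.3% in WT, and at E14.5 55.4% to 58.8% in cKO and 42.3% to 50.8% in WT. Cacng7 and Cacng8 are neighbours on chromosome 7 (3336585 to 3366948 and 3394117 to 3415605, mm10), so a pair of adjacent genes included one that fell and one that was not called. Cacng3, a type I TARP, had log2 fold changes of -0.45 (SE 0.71) at E14.5 and 0.14 (SE 0.43) at E16.5, and Cacng5 of -0.44 (SE 0.68) and -0.42 (SE 0.25). Cacng5 passed with the block (adjusted p = 0.0243).

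**Figure D5:**
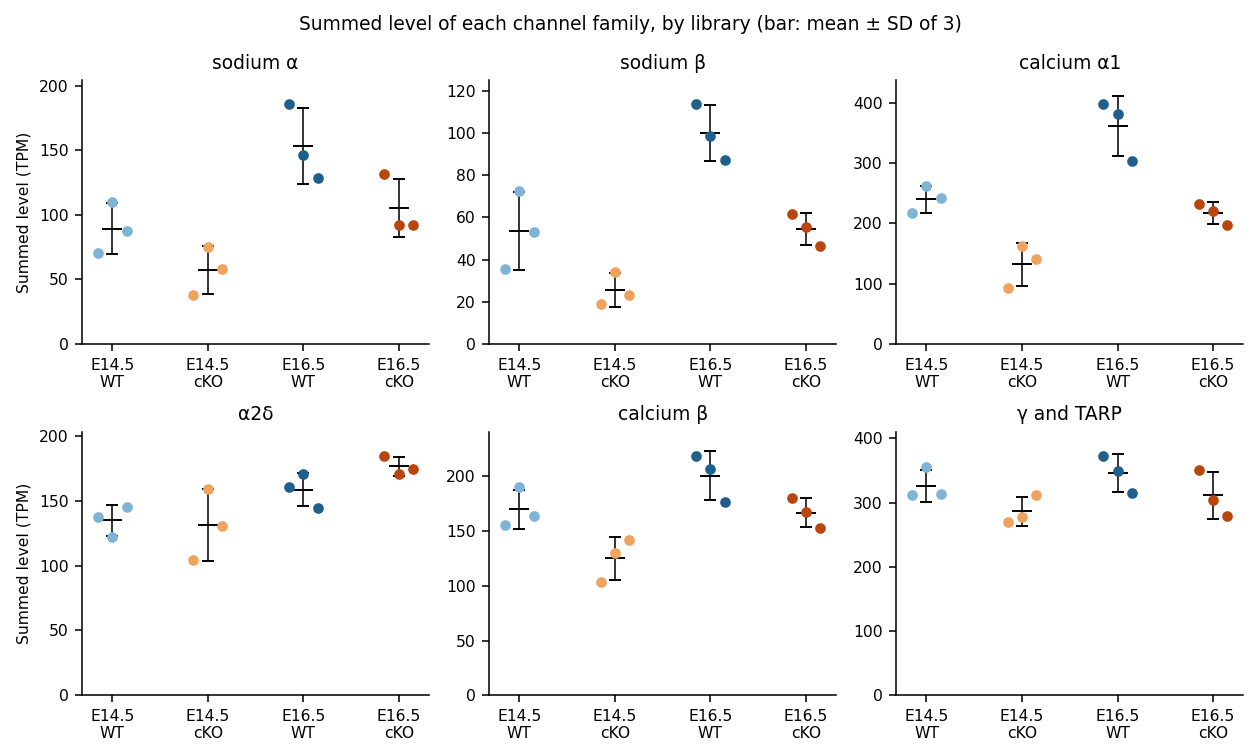
Summed TPM of each channel family in each library, with mean and SD of 3 libraries. At E16.5 the calcium alpha1 sums are 198 to 233 TPM in cKO and 304 to 397 TPM in WT, while the sodium alpha sums overlap and the alpha2delta sums average 177 TPM in cKO and 159 TPM in WT.

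Over the channel genes, the falls at E16.5 stood beside lower neuronal markers. Of the 14 neuronal markers 9 fell, none rose, and their median log2 fold change was -0.53, beside -0.54 over the channel members. Among all genes tested at E16.5, 9.88% fell and 5.98% rose. At E14.5, 1 of the 14 fell, where 1.66% of all tested genes did, with a median of -0.65 beside -0.63. Of 10 apical progenitor markers 2 rose at E16.5 and none fell, with a median of 0.26. The 11 GABAergic and ventral markers had medians of -1.20 at E14.5 and -0.09 at E16.5, and none of the 10 tested was called at either age. The part that the neuronal markers' change has in the channel results was not tested.

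Other genes encode proteins that anchor sodium channels or modulate them. Of these 14 sodium channel partners, all tested, 8 fell at E16.5 and none rose, with a median of -0.39, and 1 fell at E14.5. Of all tested genes 9.88% fell and 5.98% rose at E16.5, and 1.66% fell at E14.5. Ank3, the ankyrin that anchors sodium channels at the axon initial segment, fell by 0.96 on the log2 scale at E16.5 (SE 0.10, adjusted p = 0.00205). Fgf14, an intracellular modulator of the alpha subunits, fell by 1.49 (SE 0.15, adjusted p = 0.00186). Sptbn4, the spectrin of the same site, fell by 1.30 (SE 0.22, adjusted p = 0.00763), Sptbn1 by 0.50 (adjusted p = 0.0150) and Ptprz1 by 0.37 (adjusted p = 0.0231).

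The sodium leak channel complex moved the same way: Nalcn, its pore, fell by 0.86 (SE 0.15, adjusted p = 0.00836), Unc80 by 1.03 (SE 0.24, adjusted p = 0.0263) and Fam155a by 1.30 (SE 0.13, adjusted p = 0.00189) at E16.5. These are 3 of the 4 genes of that list found in the tables, with a median of -0.95 at E16.5 and of -1.07 at E14.5, where none was called. Of the calcium channel partners, 4 of 27 tested fell at E16.5 and 3 at E14.5, none rose, and the medians were -0.25 and -0.39, in that order. At E16.5 that count is near the share of all genes that fell (9.88%), and at E14.5 that share was 1.66%. Cabp1, a calcium sensor that binds L-type and P/Q-type channels, fell at both ages, by 1.45 (SE 0.16, adjusted p = 0.0130) at E14.5 and 1.24 (SE 0.15, adjusted p = 0.00292) at E16.5. Nfatc2, a transcription factor activated through calcineurin, also fell at both, by 1.17 (adjusted p = 0.0377) and 0.72 (adjusted p = 0.0397). Camk2a fell at E14.5 by 1.01 (adjusted p = 0.0355), and Stac2 and Nfatc1 fell at E16.5 by 1.66 (adjusted p = 0.0461) and 0.90 (adjusted p = 0.0278).

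Between E14.5 and E16.5 in WT cortex no member passed the edgeR test, where 2.15% of 15338 genes did, 117 higher and 213 lower at E16.5 (121 and 142 with DESeq2's size factors). An unadjusted p under 0.05 was reached by 13 members and 27.7% of all genes. DESeq2's own test called 6 members higher and 1 lower, where 14.2% of genes with an adjusted p were called in either direction. Of 32 members 24 had positive log2 fold changes, with a median of 0.40 against -0.01 over all tested genes. Scn2a came nearest among those higher at E16.5, from 32.9, 68.3 and 51.7 to 189, 130.2 and 104 CPM without overlap (1.47, SE 0.36, adjusted p = 0.0518). Cacna1d (0.97, SE 0.27, adjusted p = 0.0657), Scn3b (0.85, SE 0.26, adjusted p = 0.0777) and Cacng5 (1.64, SE 0.53, adjusted p = 0.0856) also lay wholly above their E14.5 values. These E14.5 WT values include WT B, which stood apart: with it and cKO A left out, 12 members were called higher and 2 lower at E16.5, beside 23.7% of all genes called in either direction. Neuronal markers had a median of 0.48 in the same comparison, and none of the 14 was called.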

How the data were processed

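RNA of dorsal cortex was sequenced in 12 libraries, 3 for each genotype and age in the labels. The labels do not say how many embryos a library holds. By sex-linked counts both E16.5 groups hold libraries of both sexes, so neither is 1 embryo repeated; at E14.5 this was not resolved, and a p-value reflects only how much these libraries vary, which may be technical. Reads were aligned by the authors with STAR (2.5.2b) to mm10, as the submitters' processing notes name them. The deposited counts are raw read pairs per gene from featureCounts 1.5.2 on the reverse strand (setting 2) with at least 25 bases of overlap, beside gene lengths, per the file headers. The authors also deposited log2 fold changes with adjusted p-values for each age, made with DESeq2 (1.14.1, per the submitters' processing notes); the 12 library columns beside them were left out here. No member shares exon bases with another gene on its strand.

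The main test was the robust quasi-likelihood F test of edgeR 4.0.16 (R 4.3.3, limma 3.58.1) on the counts, two-sided, with TMM and filterByExpr; p was adjusted by Benjamini-Hochberg over every gene tested, threshold 0.05. Each age was fitted on its 6 libraries, and the age difference and the WT age comparison in 1 fit of 12. An SE is the size of the log2 fold change over the root of F. CPM are on TMM library sizes. Alternatives were DESeq2 1.42.0, other scaling, no filter, 12 libraries in 1 fit, the shared number as a block, and leaving out libraries. Embryo sex was added only to the fit of 12 libraries. Scripts were tested on simulated counts with known changes. The main test recovered 60% of 2-fold changes at E14.5, 78% at E16.5 and 43% for the age difference. Of the simulated calls 2.5%, 4.72% and 10.3% were false, in that order. The simulated libraries were drawn independently, with a spread set by gene level and none standing apart. Rates in the real libraries may therefore differ. Libraries of a group differed beyond sampling noise (chi-square per degree of freedom 9.06 to 48.3), so none was treated as a copy. Over all genes tested, deviations from the group means correlated at 0.281, 0.210 and 0.112 for E16.5 libraries with the same number in the labels, so the number was taken to pair them there.

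The members, gene lists and tests were chosen with earlier results of these data known. Values in every library are given for members called in either age and for the 2 highest by TPM in each family, and up to 6 called genes, by p, are named from each partner list. Some genes are counted in the totals and not reported here by name.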

Additional observations from a re-analysis of the deposited data

How the results depend on the processing

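Percentages here are of all genes tested. At E14.5, 2 members were called under either other scaling, and 3 with no filter. DESeq2 gave 11 (8.64% of genes against 2.01%), the 12-library fit 12 (8.71%), and the omission of WT B and cKO A, chosen after seeing the data, 6 (4.15%). Embryo sex, added to that 12-library fit, gave 2 members and 0.835% of genes, against 12 members and 8.71% without it. Each E14.5 genotype held 1 sex, so the sex term was estimated from the E16.5 libraries alone. With 1 library left out, 0 to 2 members and 0.0334% to 2.35% of genes passed, the highest without cKO A. At E14.5 libraries A, B and C of the 2 genotypes correlated at 0.272, 0.304 and -0.0022, against 0.281, 0.210 and 0.112 at E16.5. Since the C libraries showed no correlation, the number was not taken to pair the E14.5 libraries, and whether it does was not settled. The E16.5 C pair, at 0.112, was hardly above the highest value there for unlike numbers (0.107). Pairing of the E16.5 C libraries is thus not settled either. A replicate block at E14.5 gave 14 members and 8.65%.

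At E16.5, 16 to 19 members were called under either other scaling, no filter or DESeq2, and 8 in the 12-library fit. Embryo sex, added to the 12-library fit, gave 6 members and 10.2% of genes, against 15.9% in the main fit of the E16.5 libraries alone. Genes that fell were 6.95% in the 12-library fit and 5.97% with embryo sex added. The replicate block gave 23 members and 32.2%. Leaving out 1 library gave 9 to 17 members and 6.50% to 19.0% of genes (7.45% without WT A, 6.50% without WT B, 6.59% without cKO B).

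For the age difference no setting called a member, and the block gave 1 gene (0.00652%). For WT by age, DESeq2 called 7 members and 13.1% of genes against 2.15%, no filter 1.08%, the omission of WT B and cKO A 14 members and 23.7%, and embryo sex, also added after seeing the data, 0.0652%. Leaving out 1 library gave 0 to 8 members (6 without E14.5 WT B, 8 without E14.5 cKO A, 6 without E14.5 cKO B) and 0.00640% to 14.2% of genes. A replicate block could not be fitted there, since each number belongs to 1 age.

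The 18 members called kept their direction at both ages in every alternative tried. The cause of the differences between settings was not tested. Precision is limited by 3 libraries a group, by the E14.5 libraries that stand apart, and for Scn11a by counts of at most 52 per library.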
